A study of Mus musculus with 10 samples.

Results

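Matricellular proteins are secreted proteins that sit in the extracellular matrix and act on cells through surface receptors and growth factors, rather than bearing load as collagen fibres do. The genes described are Postn, Tgfbi, Spp1, Sparc, Thbs1, Thbs2, Tnc, Smoc1 and Smoc2. They were chosen by name with earlier results of these data known, so counts beside the share of all probe sets are a description. Each gene was read from the array probe sets that the platform annotation gives to that gene alone. Of the 9 genes, 8 had such a probe set, out of 12393 genes with one on the array, and Spp1 is not analysed here. The 8 genes had 15 probe sets, all of which passed the filter on low signals, though Postn passed only through the last group named below. A gene with several probe sets is given by the one of highest mean signal, and the others are reported where they differ.

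The samples were mouse embryonic fibroblasts, connective tissue cells cultured from the embryo, measured on 10 Affymetrix arrays in 5 groups of 2. In 4 groups the cells lacked G9a, the histone H3 methyltransferase encoded by Ehmt2: they carried either no added G9a, only the empty vector (delta), or a FLAG-tagged form of it, which was wild-type in WT, had the K165A substitution in K165A and the H1093K substitution, labelled as catalytic, in H1093K. The fifth group is titled only as deleted, and the sources used here name neither its vector nor the promoter of any vector, nor whether arrays of 1 group were separate cultures, so p-values reflect just the scatter of these arrays, which could be technical. By its title the study asked how methylation of G9a itself, at a residue that resembles a histone site, governs its protein complexes, and the comparisons here set the G9a forms against each other and against none.

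In fibroblasts, matricellular proteins are made mostly during development, wound repair and fibrosis, and many are targets of transforming growth factor beta (TGF-beta). Periostin (Postn) and TGF-beta-induced protein (Tgfbi) share fasciclin domains and bind integrins and collagen. SPARC and its relatives SMOC1 and SMOC2 bind calcium, thrombospondins 1 and 2 bind CD47 and CD36 and restrain blood vessel growth, thrombospondin 1 also activates latent TGF-beta, and tenascin C (Tnc) loosens cell attachment to fibronectin.

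As facts of the whole series, the mean signal after trimming 2% of probe sets at each end was 500.1 on every array, and the median signal was 181 to 199. The arrays of a group correlated across probe sets with Pearson's r of 0.984 to 0.989, arrays of different groups among the first 4 with 0.955 to 0.993, and the arrays labelled deleted stood apart from all others at 0.906 to 0.926; probe sets are not independent replicates. Ehmt2 signal (mean ± SD, n = 2) went from 444 ± 41.0 for delta and 478 ± 23.8 for H1093K to 648 ± 39.4 for WT and 714 ± 14.5 for K165A, and was 1714 ± 50.9 for the arrays labelled deleted, which went against their label. The sources used here do not say where these probes lie relative to the deletion. Of 12 fibroblast markers, none had a mean signal under 50 over the 10 arrays. For Pdgfra, a growth factor receptor of fibroblasts, that mean rested on the arrays labelled deleted, at 1686. Pdgfra was at 5.60 in delta, 51.0 in WT, 80.2 in K165A and 38.3 in H1093K. The summed signal of the 12 markers was 49974 to 65838 per array. The macrophage markers summed to 513 to 679 with Ptprc, Adgre1 and Itgam under 50, and the endothelial markers to 227 to 362.

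The sequences just upstream of the transcription start are shown for the 4 genes whose values carry the differences between groups and for which RefSeq promoter windows were at hand. Each is the 250 bases before the RefSeq start on GRCm38.p6, written 5′ to 3′ on the gene's own strand. Capitals mark exact matches, on either strand, to the TATA box (TATAAA), the CCAAT box, the GC box that Sp1 binds (GGGCGG), the AP-1 site (TGANTCA, where N is any base) and the core of the TEAD site (GGAATG), and the matches marked do not overlap. The Tgfbi window lies at chr13:56609336-56609585 (+), the Thbs2 window at chr17:14694263-14694512 (-), the Tnc window at chr4:64047016-64047265 (-) and the Postn window at chr3:54359017-54359266 (+).
Tgfbi: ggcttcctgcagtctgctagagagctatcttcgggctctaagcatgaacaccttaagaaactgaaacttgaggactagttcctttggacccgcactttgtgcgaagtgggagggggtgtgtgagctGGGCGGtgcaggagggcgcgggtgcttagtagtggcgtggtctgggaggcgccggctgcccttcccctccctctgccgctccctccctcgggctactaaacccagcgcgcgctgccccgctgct
Thbs2: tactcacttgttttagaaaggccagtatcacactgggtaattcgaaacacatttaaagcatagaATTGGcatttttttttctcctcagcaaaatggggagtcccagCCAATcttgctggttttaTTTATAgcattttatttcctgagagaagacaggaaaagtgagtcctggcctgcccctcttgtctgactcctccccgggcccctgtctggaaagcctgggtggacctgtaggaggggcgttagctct
Tnc: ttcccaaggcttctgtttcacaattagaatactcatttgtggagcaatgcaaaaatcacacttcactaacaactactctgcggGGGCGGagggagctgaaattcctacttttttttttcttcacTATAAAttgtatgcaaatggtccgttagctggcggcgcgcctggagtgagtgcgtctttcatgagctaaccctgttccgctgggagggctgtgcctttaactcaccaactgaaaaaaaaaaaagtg
Postn: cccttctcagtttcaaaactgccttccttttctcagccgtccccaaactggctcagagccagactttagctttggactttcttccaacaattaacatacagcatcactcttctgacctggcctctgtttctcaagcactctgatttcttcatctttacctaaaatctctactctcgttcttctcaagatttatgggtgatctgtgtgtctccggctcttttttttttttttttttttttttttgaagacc
The windows differed in base composition: that of Tgfbi was 62.4% G or C with 15 CpG dinucleotides, against 46.8% and 3 for Thbs2, 44.8% and 8 for Tnc, and 40.4% and 3 for Postn, with a median of 6 CpG over 32851 windows of that length. Tgfbi held 1 GC box, starting 124 bases before the transcription start. Thbs2 held 1 TATA box match at 126 bases and 2 CCAAT box matches at 186 and 144 bases. Tnc held 1 TATA box at 126 bases and 1 GC box at 167 bases, and Postn held none of the 5. Of all windows, 12.4% held the TATA box, 33.8% the CCAAT box, 32.7% the GC box, 6.7% the AP-1 site and 12.6% the TEAD core. Smoc2 and Thbs2 lie on chromosome 17 with 0 protein-coding genes between them in RefSeq, and their signals went in opposite directions in WT and in the same direction in H1093K, as given next.

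Wild-type G9a was accompanied by more Tgfbi and Smoc2 RNA and by less Thbs2 and Tnc RNA than the empty vector. By limma, 4 of the 7 genes other than Postn passed an adjusted p of 0.05 in WT against delta, 2 higher and 2 lower. Of all 13576 probe sets tested, 11.9% passed (5.42% higher and 6.48% lower). The median absolute log2 difference was 0.48 over the 8 genes, 0.40 over the 7 without Postn, and 0.16 over all probe sets tested. All differences are on the log2(signal + 16) scale, which understates the change of dim genes. In bulk RNA, fewer cells of one type and less RNA per cell cannot be told apart.

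Tgfbi, the adhesion protein secreted in response to TGF-beta, read 1206 and 1271 on the delta arrays, 3815 and 3507 in WT, 3564 and 3275 in K165A, 2016 and 2040 in H1093K, and 2149 and 2116 on the arrays labelled deleted. Only K165A and WT overlapped among neighbours in this order, with H1093K and the arrays labelled deleted between them and delta. Tgfbi rose 2.93-fold in WT (log2 difference 1.55, 95% interval 1.38 to 1.72, adjusted p = 3.03e-06) and 2.74-fold in K165A (adjusted p = 2.75e-06). It rose less in H1093K, 1.63-fold (adjusted p = 0.00444), and H1093K lay below WT by a log2 difference of -0.85 (-1.02 to -0.68, adjusted p = 9.79e-05). Tgfbi had 4 probe sets, and 3 of them, the one of highest signal included, are of designs whose probes can match other transcripts. The remaining one read 533 and 673 in delta against 1752 and 2030 in WT, and gave log2 1.63 in WT and 0.78 in H1093K against delta (adjusted p = 3.83e-05 and 0.0314). All 4 passed in WT against delta (log2 1.29 to 1.63), in K165A against delta (1.24 to 1.54) and in H1093K against WT (-0.85 to -0.63). In H1093K against delta 3 of the 4 passed (0.61 to 0.85), and the call on the probe set of highest signal was lost without H1093K replicate 1 (adjusted p = 0.0502) or replicate 2 (0.0668), or with only the arrays compared (0.0645).

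Smoc2, a calcium-binding relative of SPARC that modulates growth factor and integrin signalling, behaved like Tgfbi among the first 4 groups but not in the last. It read 1378 and 1480 in delta, 3515 and 3746 in WT, 3600 and 4001 in K165A, 2651 and 2541 in H1093K, and 524 and 548 on the arrays labelled deleted. The lowest group was thus the arrays labelled deleted, and only WT and K165A overlapped. Smoc2 rose 2.52-fold in WT (log2 1.34, 1.16 to 1.52, adjusted p = 6.21e-06), 2.64-fold in K165A (adjusted p = 4.20e-06) and 1.81-fold in H1093K (adjusted p = 0.00295). H1093K stayed below WT by -0.48 (-0.66 to -0.30, adjusted p = 0.00467). The second Smoc2 probe set passed in the same comparisons, with 1.54 in WT, 1.75 in K165A and 0.87 in H1093K against delta and -0.67 in H1093K against WT. There the arrays of K165A (1705 and 1749) lay above those of WT (1505 and 1479), a log2 difference of 0.21 that did not pass.

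**Figure D1:**
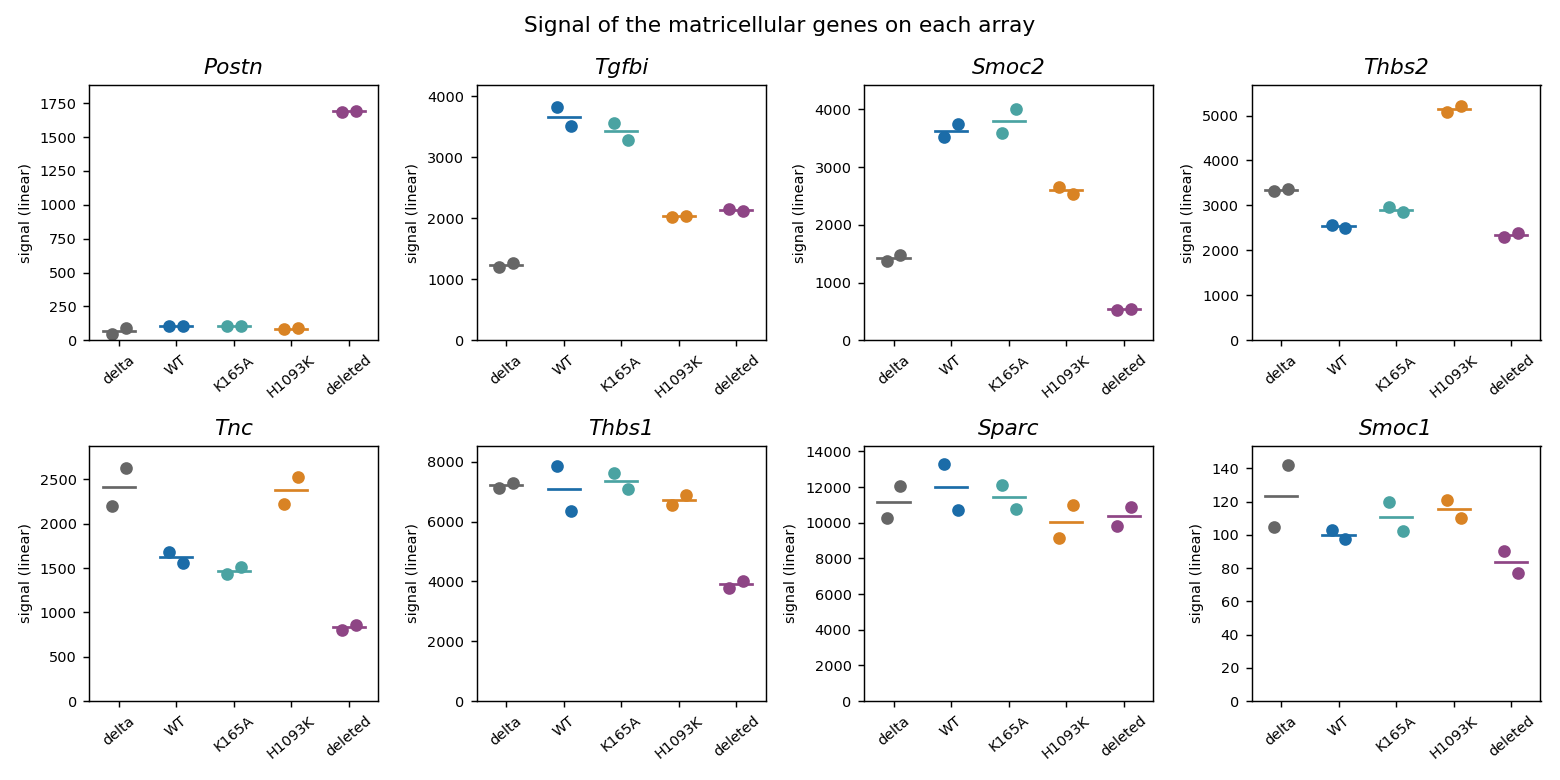
Deposited signal (linear scale, from 0) of the 8 matricellular genes, 1 panel per gene, with 2 points per group for the 2 arrays and a bar at their mean. Tgfbi and Smoc2 are lowest in delta among the first 4 groups, Thbs2 peaks in H1093K at 5070 and 5213, and Postn is at 1683 and 1695 on the arrays labelled deleted against at most 108 elsewhere.

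Thbs2, the thrombospondin that restrains vessel growth and clears matrix proteases, had its highest signal with the catalytic mutant. It read 3323 and 3362 in delta, 2575 and 2492 in WT, 2972 and 2846 in K165A, 5070 and 5213 in H1093K, and 2287 and 2387 on the arrays labelled deleted, and no 2 groups overlapped. Against delta it fell 1.32-fold in WT (log2 -0.40, -0.55 to -0.24, adjusted p = 0.00550) and rose 1.54-fold in H1093K (log2 0.62, 0.46 to 0.78, adjusted p = 0.00612). In K165A the log2 difference was -0.20 (-0.36 to -0.04), which did not pass (adjusted p = 0.104). The 2 mutants were 0.82 apart, with Thbs2 1.76-fold lower in K165A than in H1093K (adjusted p = 7.32e-05), and H1093K lay 2.02-fold above WT (log2 1.02, 0.86 to 1.17, adjusted p = 2.67e-05).

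The rise of Thbs2 from delta to H1093K was lost without delta replicate 2 (adjusted p = 0.0545) or without the first (0.0523) or the second (0.0738) H1093K array, and with only the arrays compared (0.0645). Its log2 value on the second probe set was 0.86 and passed (adjusted p = 0.0201). On that probe set Thbs2 read 2313 and 2251 in delta, 1467 and 1999 in WT, 1839 and 2097 in K165A, 4254 and 4057 in H1093K, and 1798 and 1852 on the arrays labelled deleted. The WT difference from delta was -0.41 there and did not pass (adjusted p = 0.0671), with the WT arrays further apart than on the first probe set. H1093K exceeded WT by 1.27 and passed on both probe sets.

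Tnc, the tenascin of healing wounds and developing tissue, was lower with the wild-type and K165A forms and at the delta level with H1093K. Its signals were 2204 and 2626 in delta, 1679 and 1562 in WT, 1432 and 1512 in K165A, 2220 and 2530 in H1093K, and 807 and 861 on the arrays labelled deleted. Both H1093K arrays lay within the range of delta, while WT, K165A and the arrays labelled deleted lay below it in that order. Tnc fell 1.48-fold in WT (log2 -0.57, -0.79 to -0.34, adjusted p = 0.00591; 0.0523 without WT replicate 2) and 1.63-fold in K165A (-0.70, -0.93 to -0.48, adjusted p = 0.00175). In H1093K the difference from delta was -0.02 (-0.25 to 0.20, adjusted p = 0.963). H1093K lay above WT by 0.55 (0.32 to 0.77, adjusted p = 0.00870), a call lost without WT replicate 2 (0.0702) or H1093K replicate 2 (0.0751), and K165A lay 1.60-fold below H1093K (adjusted p = 0.00237). Markers listed for smooth muscle and myofibroblasts and for epithelium moved in the same comparison. The summed smooth muscle markers were 16239 to 19615 in delta, 12585 to 15157 in WT and 15391 to 17660 in H1093K, with Myh11 under 50. The 7 epithelial markers summed to 1267 to 1474 in delta and 832 to 870 in WT, with Epcam under 50. Of the smooth muscle markers tested, 3 of 4 were lower in WT, as were 2 of 3 epithelial markers, where 6.48% of all probe sets passed as lower. Acta2, the brightest smooth muscle marker, did not pass by limma (adjusted p = 0.502). The epithelial list did not move as one. Krt18 went from 568 in delta to 170 in WT and Krt19 from 436 to 279.5. Cdh1 went up from 106 to 171.5, and Krt8 (129 and 133) and Cldn4 (56.9 and 56.8) were level. The part of these markers in the differences of Tgfbi, Smoc2, Thbs2 and Tnc was not tested.

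In K165A against delta, 3 of the 7 genes other than Postn passed (Tgfbi and Smoc2 higher, Tnc lower). Of all probe sets, 11.3% did (4.99% higher and 6.28% lower). The median absolute log2 difference was 0.37 over the 8 genes, 0.20 over the 7 without Postn, and 0.16 over all probe sets. In H1093K against delta the medians were 0.22, 0.15 and 0.11 in the same order. There 3 of the 7 passed (Tgfbi, Smoc2 and Thbs2, all higher), where 0.818% of all probe sets did (0.449% higher, 0.368% lower). That last count rested on single arrays: it was 1 without either H1093K array, and the number of all probe sets called went from 111 to as few as 7 without H1093K replicate 2, and to 472 with the replicate number as a block. Smoc2 kept its call in each of the 21 settings tried. These 3 comparisons share the delta arrays, so their values are given side by side and not as repeats of each other.

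Direct comparison of the G9a forms placed the 4 genes in pairs of opposite direction. In H1093K against WT, Tgfbi and Smoc2 were lower and Thbs2 and Tnc higher, 4 of the 7 genes other than Postn. Of all probe sets, 8.03% passed, 4.05% higher and 3.98% lower. The median absolute log2 difference was 0.38, or 0.48 without Postn, against 0.14. In K165A against H1093K the same 4 genes passed with the opposite signs, where 7.42% of all probe sets passed, 3.53% higher and 3.89% lower. The medians were 0.39, or 0.55 without Postn, against 0.14. Tgfbi was 1.68-fold higher in K165A than in H1093K (adjusted p = 2.44e-04) and Smoc2 1.46-fold higher (adjusted p = 0.00228). These comparisons share the H1093K arrays. Ehmt2 RNA also differed between these forms. Its log2 difference by limma was -0.43 for H1093K against WT (adjusted p = 0.0185). For K165A against H1093K it was 0.57 (adjusted p = 0.00406). Against delta, H1093K gave 0.10 for Ehmt2, which did not pass (adjusted p = 0.737). The part of the Ehmt2 RNA level in the H1093K values of Tgfbi, Smoc2, Thbs2 and Tnc was not tested.

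K165A and WT were not separated by any of the 7 genes other than Postn. Of 13576 probe sets, 0 passed by limma (0%), with 429 at an unadjusted p under 0.05 and a smallest adjusted p of 0.436. The log2 differences were -0.10 for Tgfbi (95% interval -0.27 to 0.07), 0.06 for Smoc2 (-0.11 to 0.24) and -0.14 for Tnc (-0.36 to 0.09). For Thbs2 it was 0.20 (0.04 to 0.35), which did not pass, and the K165A arrays of Thbs2 both lay above those of WT on the first probe set. The median absolute log2 difference was 0.08 over the 8 genes, 0.10 over the 7 without Postn, and 0.08 over all probe sets. A p that misses the threshold does not show that the forms act alike.

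**Figure D2:**
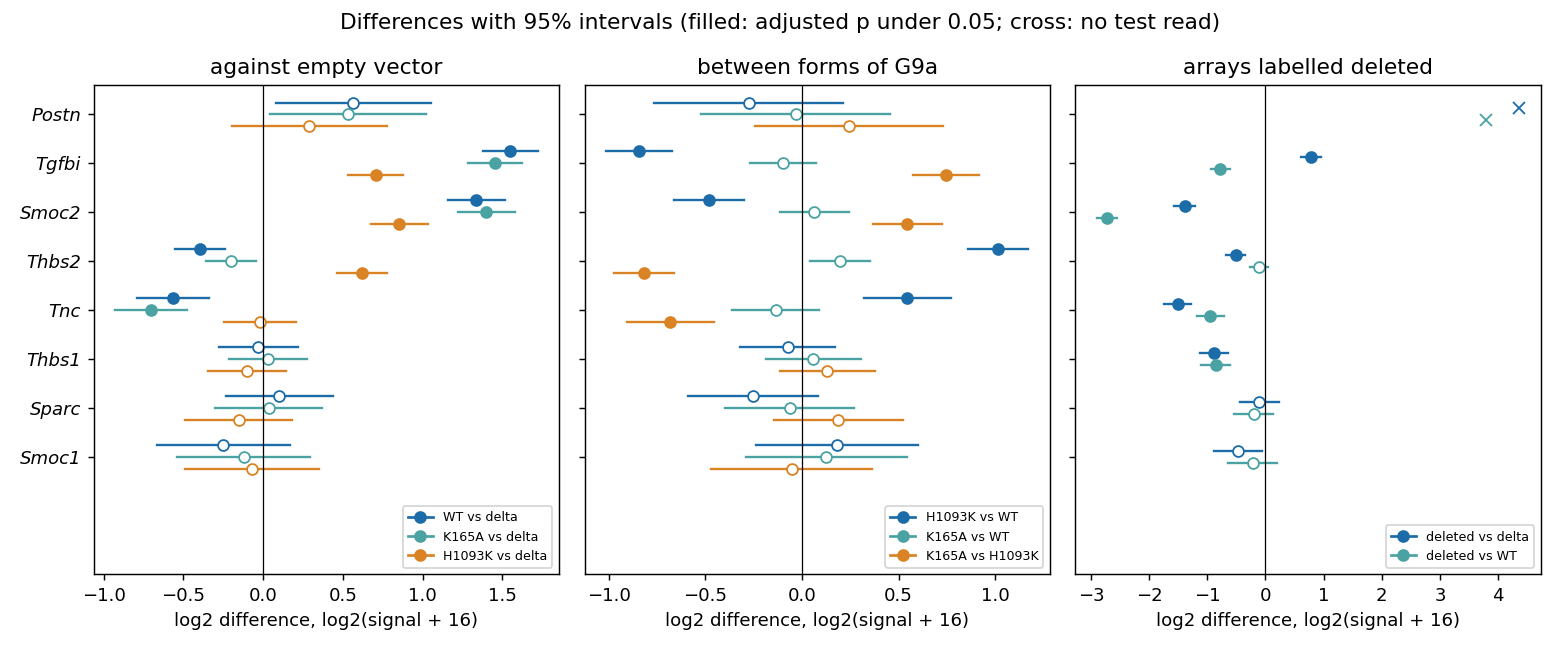
Log2 differences on the log2(signal + 16) scale (x axis) with 95% intervals for the 8 genes, by comparison, with filled points where the limma adjusted p was under 0.05 and crosses for Postn on the arrays labelled deleted, from which no test is read. Tgfbi, Smoc2, Thbs2 and Tnc are the genes with filled points in the left and middle panels, and the K165A against WT points are all open. The open points and intervals of Postn in those panels are a description, and no test is read from them either.

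Postn, which binds collagen and integrins and helps cross-link the matrix of healing tissue, was far brighter on the arrays labelled deleted than on any other. It read 47.5 and 91.8 in delta, 105 and 108 in WT, 105 and 102 in K165A, and 80.0 and 90.6 in H1093K. On the arrays labelled deleted it read 1683 and 1695. The first 8 arrays averaged 91.3, under the filter level of 96.7, so Postn entered the fit only because of the deleted arrays, and no test or count is read from its difference there.

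As a description, the arrays labelled deleted lay above delta by 4.37 and above WT by 3.80 on the log2(signal + 16) scale. The first value was 3.73 with a pseudocount of 64 and 3.98 to 4.75 when 1 delta array was left out. The delta signals are not shown to be above background, so the size of the difference is not settled. The delta arrays differed 1.93-fold from each other, the widest ratio between paired arrays among the 8 genes, where the median was 1.07. Among the first 4 groups WT was 0.57 above delta and K165A 0.53. Without delta replicate 2, the brighter one, these were 0.95 and 0.91. No test is read from these values either, since Postn was in the fit only through the arrays labelled deleted.

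On the arrays labelled deleted, 5 of the 7 genes other than Postn passed against delta, Tgfbi higher and Smoc2, Tnc, Thbs1 and Thbs2 lower, where 33.0% of all probe sets passed (15.6% higher and 17.4% lower). Against WT, 4 of the 7 passed, Smoc2, Tnc, Thbs1 and Tgfbi, all lower, where 32.4% of all did (15.4% higher and 16.9% lower). The median absolute log2 differences were 0.78 and 0.77 over the 7 genes, against 0.25 and 0.24 over all probe sets. In the F test over all 5 groups 5 of the 7 passed (36.2% of all probe sets), and in that over delta, WT, K165A and H1093K 4 of the 7 (11.5%).

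Tgfbi lay between delta and WT on the arrays labelled deleted, 1.71-fold above delta (adjusted p = 4.17e-05) and 1.71-fold below WT (adjusted p = 4.87e-05). On the other 3 Tgfbi probe sets the arrays labelled deleted overlapped with H1093K. Smoc2 lay 2.62-fold below delta (log2 -1.39, adjusted p = 1.19e-06) and 6.60-fold below WT (-2.72, -2.90 to -2.54, adjusted p = 3.68e-08). Tnc lay 2.85-fold below delta (-1.51, -1.74 to -1.29, adjusted p = 3.04e-06) and 1.93-fold below WT (adjusted p = 8.45e-05). So Tgfbi and Smoc2, which rose together with each G9a form, were on opposite sides of delta on these arrays. Thbs2 lay 1.43-fold below delta (-0.51, adjusted p = 3.77e-04), though its second probe set gave -0.32 and did not pass (adjusted p = 0.0813), and it did not differ past the threshold from WT (-0.12, -0.27 to 0.04, adjusted p = 0.241).

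Thbs1, the thrombospondin that activates latent TGF-beta, was even across the first 4 groups and lower on the arrays labelled deleted. It read 7121 and 7307 in delta, 7854 and 6363 in WT, 7639 and 7092 in K165A, 6544 and 6902 in H1093K, and 3779 and 4017 on the arrays labelled deleted. The WT arrays spanned the whole range of delta, and only the arrays labelled deleted lay apart. Against delta Thbs1 was 1.85-fold lower there (log2 -0.89, -1.13 to -0.64, adjusted p = 1.99e-04), with -1.01 on its second probe set, and against WT 1.81-fold lower (adjusted p = 2.81e-04). Among the first 4 groups its log2 differences ran from -0.10 to 0.13 and none passed.

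Sparc, a collagen-binding glycoprotein that fibroblasts make in quantity, gave no difference past the threshold in any comparison. It read 10284.5 and 12036 in delta, 13303 and 10699 in WT, 12117 and 10745.5 in K165A, 9121 and 10989 in H1093K, and 9844 and 10890 on the arrays labelled deleted. Every neighbouring pair of groups overlapped, and the interval for WT against delta was -0.24 to 0.44 around 0.10. Smoc1, the other SPARC relative, which opposes bone morphogenetic protein signalling, was dim. It read 105 and 142 in delta, 103 and 97.5 in WT, 120 and 102 in K165A, 121 and 110 in H1093K, and 90.1 and 77.2 on the arrays labelled deleted. Smoc1 was lowest on the arrays labelled deleted, with a log2 difference of -0.47 from delta (-0.89 to -0.05) that did not pass (adjusted p = 0.0807).

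**Figure D3:**
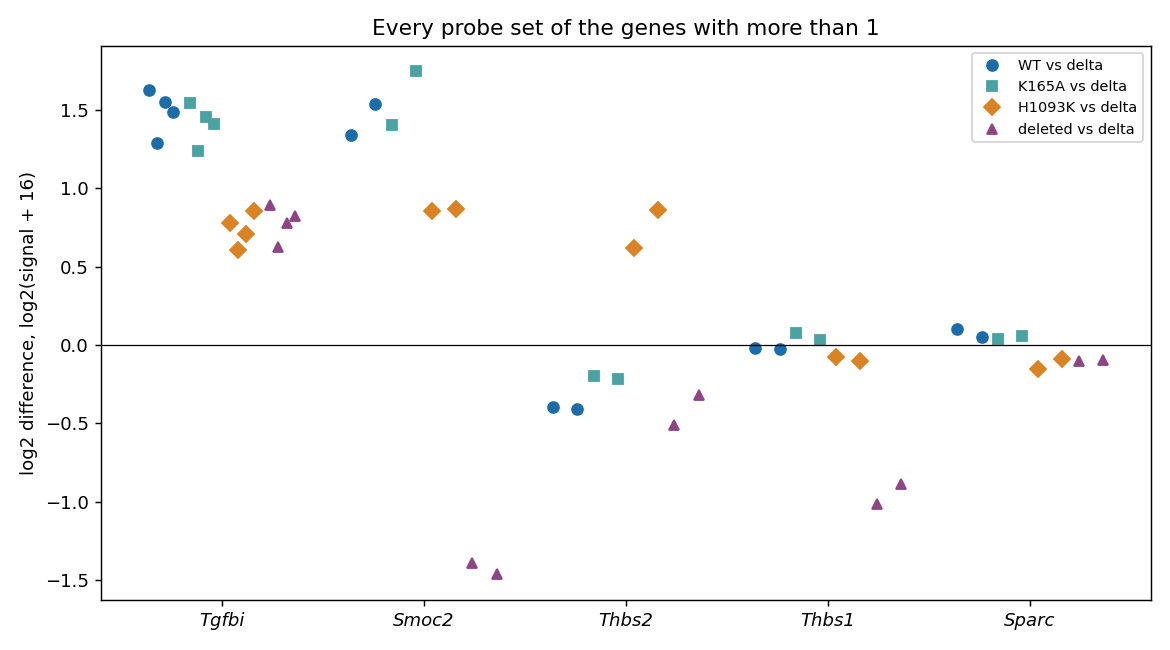
Log2 difference from delta on the log2(signal + 16) scale (y axis) for every probe set of the 5 genes with more than 1, by comparison. The 4 Tgfbi probe sets lie at 1.29 to 1.63 in WT and 0.61 to 0.85 in H1093K, and those of Sparc lie near 0.

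The arrays labelled deleted differed in the markers listed for epithelium and smooth muscle as well. The epithelial markers summed to 4487 to 4561 on those arrays and 661 to 1474 on the other 8, with Krt8 at 1604, Krt18 at 2071 and Dsp at 358. The list did not move as one: Epcam was at 20.8, the cadherin Cdh1 was at 24 against 99.4 to 171.5 in the other groups, Krt19 at 388 against 436 in delta and Cldn4 at 58.3 against 56.9 in delta. The smooth muscle markers summed to 9437 to 9846, below every other array, and all 4 tested were lower than in delta, where 17.4% of all probe sets passed as lower. Against WT 3 were lower, and Actg2 was higher, at 196 against 54.1, where 16.9% of all probe sets passed as lower and 15.4% as higher. The macrophage markers summed to 531 to 679 there and 513 to 672 on the other 8 arrays. The part of these marker differences in the levels of Postn, Smoc2, Tnc and Thbs1 was not tested.

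Genes of the same field followed lists chosen by function. Of 22 other matricellular genes, 20 had a probe set and 11 passed the filter on low signals. Their counts stand beside 11.9% of all probe sets called in WT, 11.3% in K165A, 0.818% in H1093K and 33.0% on the arrays labelled deleted, each against delta. In WT 2 were higher, 2 lower and 7 did not pass, and in K165A 2 were higher and 3 lower (3 in all without K165A replicate 1). In H1093K against delta 0 of the 11 passed, and on the arrays labelled deleted 1 was higher and 5 lower. Ccn3, a member of the CCN family that restrains growth, was low for delta (448 ± 173, SD, n = 2) and H1093K (611 ± 54.2) and high for WT (2095 ± 58.9), K165A (2022 ± 63.2) and the arrays labelled deleted (2102 ± 35.5). It rose 4.71-fold in WT and 4.55-fold in K165A, and H1093K lay 3.37-fold below WT. The 2 delta arrays of Ccn3 read 571 and 326. Its probe set, like that of Itgb5 below, is of a design whose probes can match other transcripts. Igfbp7, a secreted protein that binds insulin-like growth factors, went the other way: it fell 2.89-fold in WT, 2.74-fold in K165A and 4.30-fold on the arrays labelled deleted, and H1093K, at 5810 ± 405, was close to delta at 6209 ± 765. Ccn2, the connective tissue growth factor, was 2.65-fold lower on the arrays labelled deleted than in delta. Ccn5 fell 1.80-fold in WT (adjusted p = 0.0505 without WT replicate 2) and 2.47-fold on the arrays labelled deleted.

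Of 20 receptors of these proteins, 12 were tested. In WT against delta 2 of the 12 (16.7%) were lower and 10 did not pass, where 11.9% of all probe sets passed, and without any single delta or WT array 0 passed. Cd44, the hyaluronan receptor that also binds osteopontin, was highest for H1093K (2020 ± 1.05, SD, n = 2), against 1207 ± 98.9 for delta, 1461 ± 40.3 for WT and 1407 ± 80.4 for K165A. It was the 1 receptor of the 12 that rose in H1093K against delta, 1.67-fold, where 0.818% of all probe sets passed, 0.449% higher. That call was lost without delta replicate 2 or either H1093K array, and with only the arrays compared (adjusted p = 0.0826). On the arrays labelled deleted 1 receptor was higher and 5 lower than in delta, where 33.0% of all probe sets passed. The integrin chains Itgb5 and Itgb1, which pair with alpha chains to bind matrix proteins, fell 2.21-fold and 1.45-fold there, and the heparan sulphate carrier Sdc1 rose 1.35-fold.

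All 20 genes of the TGF-beta pathway with a probe set, of 21 listed, were tested. In WT against delta 5 were higher, 4 lower and 11 did not pass (11.9% of all probe sets passed), in K165A 3 were higher and 5 lower (11.3%), and in H1093K 0 passed (0.818%). On the arrays labelled deleted 6 were higher and 6 lower (33.0%). The WT count was 4 without delta replicate 1 or WT replicate 2, and the K165A count 5 without any 1 delta or K165A array. Pmepa1, a target of TGF-beta that damps the pathway, fell 1.64-fold in WT, 1.58-fold in K165A and 2.24-fold on the arrays labelled deleted, and H1093K exceeded WT 2.17-fold. Ltbp2, of the family of latent TGF-beta binding proteins, passed the filter on low signals only through the arrays labelled deleted. Its values are therefore a description: 136 ± 6.21 (SD, n = 2) in delta, 59.7 ± 9.34 in WT, 56.0 ± 5.40 in K165A and 160 ± 16.9 in H1093K. On the arrays labelled deleted it was 254 ± 14.2. The counts above include Ltbp2, as lower in WT and K165A and higher on the arrays labelled deleted, and no test is read from it. Apart from Ltbp2, the genes lower in WT than in delta were Pmepa1, Skil and Tgif1. In K165A they were these and Smad7. Ltbp4 and the ligand Tgfb3 were 5.15-fold and 2.24-fold higher on those arrays than in delta. Tgfbi, named for its response to this ligand family, rose in WT and K165A while Pmepa1 fell.

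Of the 20 matrix partners, 17 were tested. In WT and in K165A against delta 4 were higher and 2 lower (11.9% and 11.3% of all probe sets passed). In H1093K 1 was higher (Vcan, 1.43-fold), where 0.818% of all probe sets passed. That call was lost in 14 of 21 alternatives, among them no filter, median centring and no trend. It was also lost without any 1 delta, K165A, H1093K or deleted array. On the arrays labelled deleted 5 were higher and 5 lower (33.0%). Vcan, the large proteoglycan versican, rose 2.04-fold in WT, 2.57-fold in K165A and 2.77-fold on the arrays labelled deleted. The collagen chains Col3a1 and Col6a2 rose 1.86-fold and 1.64-fold in WT and 3.41-fold and 2.03-fold on the arrays labelled deleted. Loxl1, an enzyme that cross-links elastin, fell 1.48-fold in WT, 1.55-fold in K165A and 2.17-fold on the arrays labelled deleted.

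**Figure D4:**
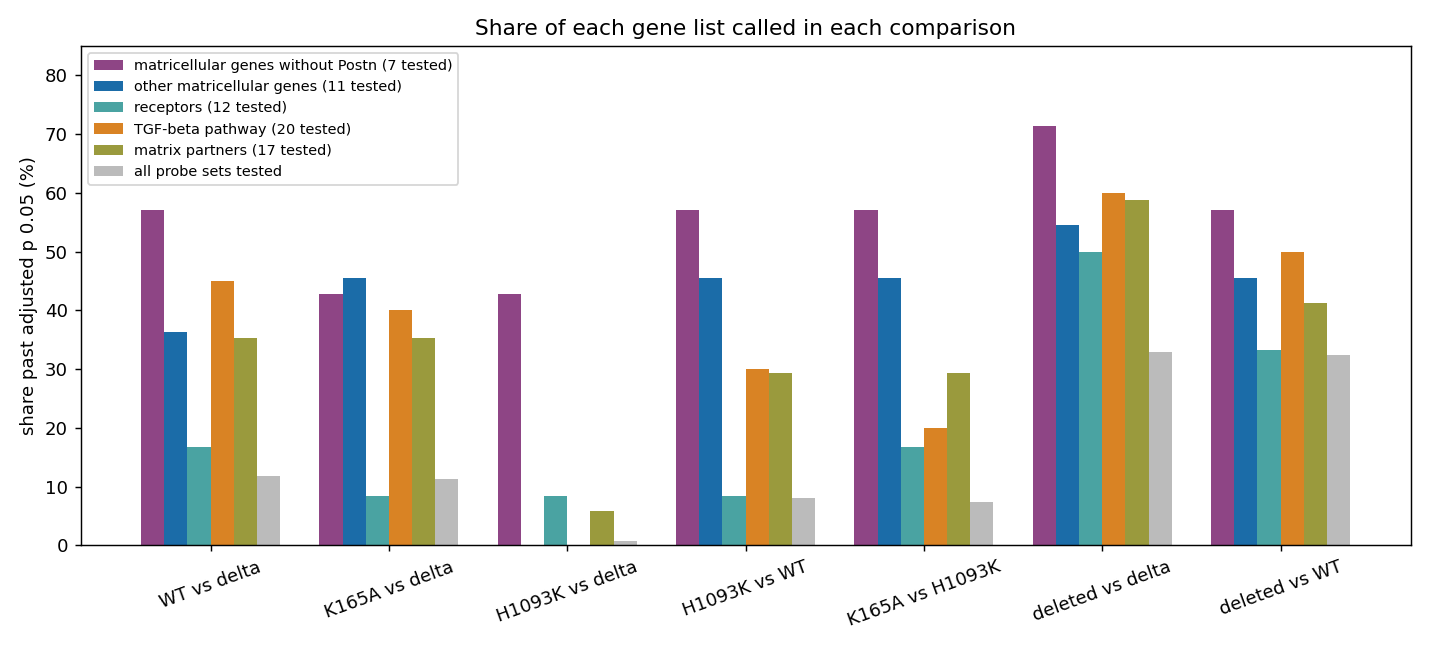
Share of tested genes past a limma adjusted p of 0.05 (y axis, %, from 0) in each comparison. Bars stand for the 7 matricellular genes other than Postn, 4 lists of related genes and all probe sets tested. The TGF-beta bars include Ltbp2, which passed the filter on low signals only through the arrays labelled deleted. In H1093K against delta 42.9% of the 7 genes (3 of 7), 8.33% of the receptors, 5.88% of the matrix partners and 0.818% of all probe sets passed, and K165A against WT, with 0 in every list, is not drawn.

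The genes nearest in pattern were found by the root mean square difference between centred log2 group means over the 5 groups, among 7739 genes. For Thbs2 these were Fam20c, a secretory pathway kinase (0.085), and Prss35, a serine protease relative (0.10). For Tgfbi they were Coch (0.15) and Lypd1 (0.17), for Smoc2 Cdo1 (0.16) and Tmem40 (0.19), and for Tnc Hp (0.041) and Map3k20 (0.050). For Postn they were the growth factors Mdk (0.18) and Igf2 (0.21), and for Thbs1 Vwa5a (0.044) and Ccdc80 (0.046). The nearest genes of Sparc, Faf1 and Bnip2, and those of Smoc1, Tmbim4 and Med27, lay within 0.020. This is a description over 5 group means that share their arrays, and it was not tested.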

How the data were processed

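Expression was measured on 10 Affymetrix arrays. The authors deposited linear signal intensity from GCOS 1.4, per the submitters' processing notes, with scaling options not given in the sources used here. They were used without further scaling. Of 22690 probe sets, 64 were controls, 20380 had 1 gene, 691 several and 1555 none by the platform annotation, with symbols updated through the RefSeq gene table of GRCm38.p6. Groups came from the sample titles.

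Probe sets with a mean log2(signal + 16) at or over the 40th percentile were tested: 13576, covering 7742 genes. In R 4.3.3, limma 3.58.1 (lmFit, eBayes with trend) was fitted with 1 mean per group and 5 residual degrees of freedom (prior 4.73), Benjamini-Hochberg adjusted over all tested probe sets, threshold 0.05. The code was tested on simulated data. An exact two-sided permutation test of 2 arrays against 2 cannot go below 0.333, so none is given; the number of arrays limits precision. Named were all 9 genes, Ehmt2, up to 4 genes of smallest F test p per list, and the 2 genes nearest in pattern. The genes and lists were chosen with earlier results of these data known. Alternatives changed the pseudocount, filter, scaling, trend, block, samples and probe set rule.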

Additional observations from a re-analysis of the deposited data

How the results depend on the processing

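Over the 7 genes other than Postn, all differences past the threshold but 4 passed in every alternative that gave a value. No test is read from any Postn difference. The 4 that did not pass in every alternative are given with their values in the report: Tnc in WT against delta and in H1093K against WT, and Tgfbi and Thbs2 in H1093K against delta. Thbs2 in K165A against delta, which had not passed, did so with quantile normalization (adjusted p = 0.0423). Smoc1 on the arrays labelled deleted against delta did so with median centring (0.0489) or without trend (0.0352). Its log2 difference was -0.66 without delta replicate 1. Postn fell under the filter without both deleted arrays, in pairs of groups fitted alone other than WT with K165A or those that hold the deleted arrays, and, like Smoc1, at the 60th percentile, so these gave no value. Smoc1 also gave none in the WT and deleted arrays fitted alone. K165A against WT called 0 probe sets in all 20 alternatives.

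Same-numbered arrays deviated together (correlation 0.234 to 0.527 over the 10 pairs of groups), but the labels do not say that a number marks a shared batch. With the replicate number as a block, probe sets called were 2813 in WT, 2678 in K165A and 472 in H1093K against delta, 1946 in H1093K against WT, 1854 in K165A against H1093K and 3012 across 4 groups, and no call of the 8 genes changed. With only the arrays compared, the counts were 807 for K165A and 11 for H1093K against delta, 662 for K165A against H1093K, and 1 of the 8 genes in H1093K against delta. H1093K against delta gave 60 without a filter, 53 without trend and 65 without both deleted arrays. Leaving out 1 array gave 795 to 1570 (WT), 828 to 1355 (K165A) and 7 to 88 (H1093K) against delta, 552 to 1048 for H1093K against WT, 547 to 959 for K165A against H1093K, 3253 to 4746 across 5 groups, and 1 to 3 of the 8 genes in H1093K against delta.

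Of the differences, 17 changed sign under some alternative, and 0 of these had passed. With quantile normalization Sparc was at -0.062 in WT and -0.11 in K165A against delta, 0.0039 in H1093K against WT and -0.054 in K165A against H1093K, and Thbs1 at -0.068 in K165A against delta, 0.12 in H1093K against WT and -0.042 in K165A against H1093K. Leaving out 1 array, Sparc ran from -0.056 to 0.26 (WT), -0.077 to 0.15 (K165A) and -0.22 to 0.0097 (deleted) against delta and -0.22 to 0.093 in K165A against WT. Thbs1 ran from -0.18 to 0.12 (WT) and -0.024 to 0.082 (K165A) against delta, -0.093 to 0.21 in K165A against WT and -0.22 to 0.079 in H1093K against WT. Smoc1 ran from -0.32 to 0.071 (K165A) and -0.26 to 0.12 (H1093K) against delta and -0.15 to 0.044 in K165A against H1093K. In H1093K against delta Postn ran from -0.092 to 0.67 and Tnc from -0.15 to 0.10, and Smoc2 from -0.012 to 0.14 in K165A against WT. The cause of these changes was not tested.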
